A study of Mus musculus with 30 samples.

Results

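The effect of 18 weeks of high-fat diet (HFD) on the kidney was followed in mice that lack the EGF receptor (EGFR) in vascular smooth muscle cells. The comparison rests on 8 of the 30 sequenced samples, the 4 kidneys of KO-HFD-1437, KO-HFD-1504, KO-HFD-1520 and KO-HFD-1558 and the 4 kidneys of KO-SFD-1303, KO-SFD-1318, KO-SFD-1319 and KO-SFD-1451 (named by group and mouse number), which were taken by genotype, diet and tissue as labelled, and it covers all genes. SFD is the standard-fat diet. The 8 WT kidneys (4 WT-SFD and 4 WT-HFD) entered the same fit and give the comparison values. KO mice were bred from Egfr flox/flox mice and Smmhc-Cre mice, whose tamoxifen-inducible Cre recombinase is driven by the Myh11 promoter of smooth muscle. WT mice carried this Cre but no loxP sites. The transgene lies on the Y chromosome, so that all animals were male. All animals of both genotypes received tamoxifen for 5 days, and the HFD began after it, at 6 weeks of age. The labels give the strain as C57Bl6J, whereas the Cre line is described as C57BL/6N. Each library came from a single mouse. KO-SFD-1319 and KO-HFD-1504 also gave an aorta, which was not used here. Which region of the kidney was frozen for RNA is not given in the sources used here.

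The nephron filters plasma in the glomerulus and recovers most of the filtrate in the proximal tubule, where carriers on the luminal and the basolateral side move glucose, phosphate, amino acids and organic anions. The thick ascending limb and the distal tubule then adjust salt, and the collecting duct adjusts water. The proximal tubule also makes glucose, burns fatty acids and activates and degrades vitamin D. EGFR is a receptor tyrosine kinase that signals through ERK, and it is abundant in tubule epithelium, which the smooth muscle Cre does not target.

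Libraries of KO-SFD kidneys held 18327872 to 19814411 counts, with a median of 19481402, and those of KO-HFD kidneys held 17487556 to 21799372 counts, with a median of 18932726. Values per mouse are given as FPM, that is CPM computed with library sizes scaled by TMM factors. No gene of chromosomes 9, X, Y and MT had a count in any kidney (6021 genes), nor did the 527 genes of chromosome 8 that start beyond position 97427712 (GRCm38), so these genes were not analysed here. The tissue label was checked with nephron markers. All 12 proximal tubule markers were measured, led by Slc34a1, as were 5 of 6 markers of the thick ascending limb, led by Umod, and all 10 podocyte markers. The missing marker, Kcnj1, lies on chromosome 9. In a principal component analysis of the 2000 most variable genes of the KO kidneys, the first component held 36.2% of the variance. KO-HFD-1520 and KO-HFD-1558 stood apart on it, with scores of 42.5 and 32.3, while KO-HFD-1437 and KO-HFD-1504 had scores of -5.77 and -0.37. The KO-SFD kidneys scored between -25.0 and -3.73. On the second component, with 26.6% of the variance, KO-SFD-1318 and KO-SFD-1319 had the lowest scores (-22.1 and -28.8) and KO-HFD-1504 the highest (39.7). Results are also given without KO-HFD-1520 and KO-HFD-1558, and without KO-SFD-1318 and KO-SFD-1319, which were left out for their high amino acid response genes.

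Whole-kidney Egfr did not pass the test for a diet effect. Egfr (ENSMUSG00000020122, chr11:16752203-16918158, plus strand) was at 52.7, 46.7, 60.8 and 54.0 FPM in the KO-SFD kidneys and at 42.9, 45.5, 40.5 and 43.5 FPM in the KO-HFD kidneys. Every KO-HFD kidney was below every KO-SFD kidney, and the log2 fold change was -0.31 ± 0.13 (SE; edgeR adjusted p = 0.254, n = 4 and 4). In WT kidneys the means were 50.4 ± 8.13 FPM on SFD and 45.9 ± 8.30 FPM on HFD (SD, n = 4). Total Egfr of a kidney does not check the deletion, which concerns smooth muscle only.

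HFD changed 360 of 15034 tested genes in KO kidneys at an edgeR adjusted p under 0.05, which is 2.39% of the genes tested, with 236 genes higher (1.57%) and 124 lower (0.825%). At a stricter limit of 0.001, 50 genes passed (0.333%), 46 higher and 4 lower. The 4 lower genes were Igf2bp1, Fgfbp1, Acox2 and Ndrg2. Of the 360 genes, 334 were protein coding. The median log2 fold change was 1.13 among the genes that rose and -0.85 among those that fell, and 136 rose and 44 fell by more than 1 on the log2 scale. The KO-HFD and KO-SFD values did not overlap for 231 of the risen and 112 of the fallen genes. Among all genes tested, 5.02% lay entirely higher and 3.85% entirely lower in KO-HFD. The count at 0.05 was 128 without KO-HFD-1520 and KO-HFD-1558, 119 without KO-SFD-1318 and KO-SFD-1319, and 4 when the mean of the thick ascending limb markers entered as a covariate. The summed markers did not overlap between the diets in KO kidneys, so this fit cannot tell the covariate from diet. With this covariate, the 76 named genes that had passed all kept the direction of their log2 fold change. Its size was a median of 0.674 times that without the covariate, and between 0.108 and 1.1 times. Ppp1r1a, among the 76, is itself part of the covariate. As examples chosen after the values were seen, Cyp2d12 was at -2.09 with the covariate and -2.12 without, Acox2 at -0.89 and -0.93, and Sox9 at 2.69 and 2.89. Others shrank more, with Slc12a3 at 0.13 and 0.71, Slc2a2 at 0.25 and 0.79, Slc5a2 at 0.80 and 1.54, and Slc22a8 at 0.76 and 1.44. The labels do not say whether the animals came from different litters or cages, and p values measure the spread between these mice.

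**Figure D1:**
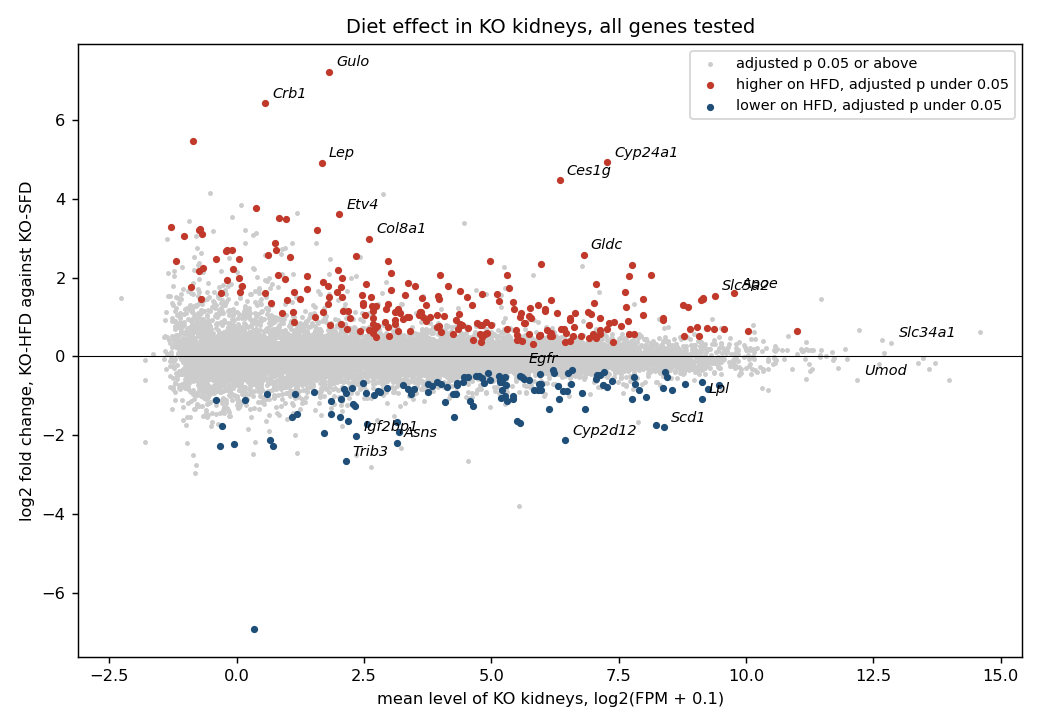
Log2 fold change of KO-HFD against KO-SFD kidneys (vertical axis, from the edgeR fit) against the mean level of the KO kidneys (horizontal axis, log2 of FPM plus 0.1) for the 15034 genes tested, each point 1 gene. The 236 genes that rose are red and the 124 that fell are blue. Gulo and Crb1 lie highest, and Cyp24a1 and Ces1g rose at much higher levels.

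The smallest p values, those of Gulo and Crb1, belonged to genes that were close to silent on SFD. Gulo (chr14:65986786-66009207, minus strand) encodes the enzyme of the last step of vitamin C synthesis, which mice carry out mainly in the liver. It was at 0.0964, 0, 0.0511 and 0 FPM in KO-SFD and at 4.72, 6.36, 11.9 and 4.32 FPM in KO-HFD. All 4 KO-HFD kidneys were above all KO-SFD kidneys, with KO-HFD-1520 highest. Summed over the groups, this was 3 counts on SFD and 508 on HFD, a scaled ratio of 169 (95% exact interval 57.6 to 823, counting error only; edgeR adjusted p = 3.52e-07). Crb1 (chr1:139197056-139377100, minus strand), which encodes a polarity protein of epithelia and photoreceptors, was at 0, 0, 0.102 and 0 FPM on SFD and at 1.95, 2.90, 2.22 and 3.77 FPM on HFD. Here 2 counts stood against 213, a scaled ratio of 106 (95% exact interval 29.1 to 884; edgeR adjusted p = 1.55e-06). Both genes were also near 0 in WT-SFD and rose in WT-HFD, with 12 against 304 counts for Gulo and 5 against 277 for Crb1.

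Further genes with small p values were well above the detection limit on both diets. Col8a1, a chain of collagen VIII, was at 1.45, 1.51, 0.767 and 1.58 FPM in KO-SFD and at 8.95, 10.3, 14.5 and 8.60 FPM in KO-HFD (log2 fold change 2.99 ± 0.28 SE, edgeR adjusted p = 3.84e-05). Chrna4, a subunit of neuronal nicotinic acetylcholine receptors, went from 42.9, 35.7, 39.4 and 38.1 FPM to 93.0, 93.6, 115 and 119 FPM. Its log2 fold change was 1.43 ± 0.14 (edgeR adjusted p = 4.11e-05). For both genes the lowest KO-HFD kidney lay well above the highest KO-SFD kidney. Prodh2, which degrades hydroxyproline, rose by 1.85 ± 0.20 on the log2 scale and the glucuronosyltransferase gene Ugt2b34 by 2.06 ± 0.23. Gc, the vitamin D binding protein, was at 17.4 to 23.9 FPM in KO-SFD and at 61.4, 121, 120.0 and 117 FPM in KO-HFD, with KO-HFD-1437 well below the rest. The predicted gene D630023F18Rik also belonged to the 10 risen genes with the smallest p.

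The largest fitted changes among genes at 5 FPM or more in the higher group included 3 that varied widely between mice. Cyp24a1 (chr2:170482708-170497145, minus strand) encodes the enzyme that inactivates vitamin D, and its mRNA is made in the proximal tubule. It was at 15, 2.21, 0.818 and 21.2 FPM in KO-SFD and at 151, 269.9, 483 and 291 FPM in KO-HFD (log2 fold change 4.93 ± 0.77, edgeR adjusted p = 0.00148). The groups did not overlap, although the KO-SFD kidneys differed widely among themselves. In WT kidneys Cyp24a1 was 52.8 ± 31.8 FPM on SFD and 220.3 ± 105 FPM on HFD (SD, n = 4; edgeR adjusted p = 0.245). Cyp27b1, which makes the active hormone, and the receptor gene Vdr did not pass the test, with log2 fold changes of 0.12 ± 0.51 and 0.53 ± 0.17. Ces1g, a carboxylesterase gene of lipid metabolism, was at 2.17, 2.48, 2.56 and 21.0 FPM on SFD and at 64.7, 137, 275 and 141 FPM on HFD (log2 fold change 4.47 ± 0.73, edgeR adjusted p = 0.0021). KO-SFD-1451 stood apart from the other KO-SFD kidneys in this gene. Lep, the leptin gene of adipocytes, was at 0.153 to 0.218 FPM in KO-SFD and at 1.74, 2.29, 17.2 and 2.66 FPM in KO-HFD, so that KO-HFD-1520 held most of the signal (log2 fold change 4.91 ± 1.04, edgeR adjusted p = 0.0158).

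**Figure D2:**
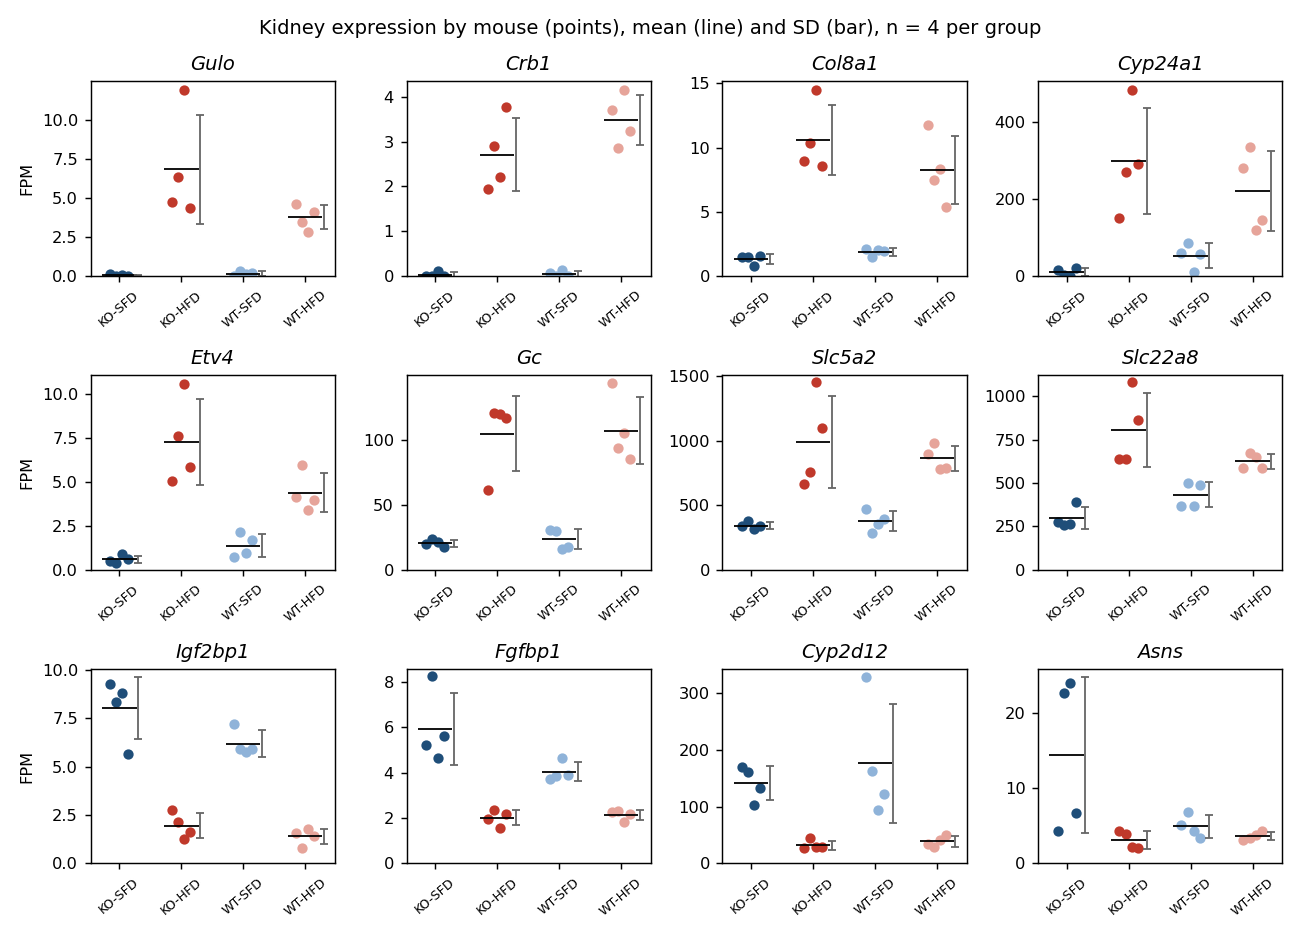
FPM (vertical axes, starting at 0) of 12 genes in each kidney, by group. Points are mice, horizontal lines are means and bars are SD (n = 4 per group). In KO, all but Asns have no overlap between the diets, and the WT groups are drawn in paler colours.

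Several genes that are induced by receptor tyrosine kinases through ERK rose. This group was put together after the data had been seen and is only described. Of 14 ERK feedback genes and PEA3 transcription factors tested, 5 rose and none fell, while 1.57% of all genes tested rose. The median log2 fold change was 0.53 against -0.0037 over all genes tested. In WT the median of this list was 0.45, and 2 genes rose, Etv4 and Etv1. Etv4, a PEA3 factor, was at 0.482, 0.377, 0.869 and 0.601 FPM in KO-SFD and at 5.04, 7.61, 10.6 and 5.83 FPM in KO-HFD (log2 fold change 3.61 ± 0.36, edgeR adjusted p = 5.23e-05). Its relatives followed: Etv1 rose by 1.87 ± 0.23 and Etv5 by 1.58 ± 0.20 on the log2 scale. Dusp6, the phosphatase that switches ERK off, was at 24.6 to 38.6 FPM in KO-SFD and at 52.9 to 69.6 FPM in KO-HFD (log2 fold change 0.99 ± 0.15, edgeR adjusted p = 0.00132). Errfi1, which binds and inhibits EGFR, was at 258, 183, 228 and 333 FPM in KO-SFD and at 559.9, 544, 775 and 592 FPM in KO-HFD (log2 fold change 1.30 ± 0.20, edgeR adjusted p = 0.00139). For all 5 genes, the KO-HFD kidneys lay above the KO-SFD kidneys without overlap, as they did for 231 of the 236 risen genes. Leaving out KO-HFD-1520 and KO-HFD-1558 also gave 5 risen genes. Without KO-SFD-1318 and KO-SFD-1319 there were 4, as Errfi1 did not pass (log2 fold change 1.07, edgeR adjusted p = 0.0525), and the thick ascending limb covariate gave 0. With that covariate the log2 fold changes were 2.85 for Etv4 (edgeR adjusted p = 0.0639), 1.19 for Etv1, 0.99 for Etv5, 0.77 for Dusp6 and 0.91 for Errfi1.

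Among EGFR family members, ligands and the sheddase, 13 genes were tested, of which Errfi1 rose and Nrg1 fell. Nrg1, a ligand of the related receptors ErbB3 and ErbB4, was at 7.18, 7.92, 8.08 and 4.26 FPM in KO-SFD and at 2.33, 2.81, 3.86 and 2.66 FPM in KO-HFD (log2 fold change -1.25 ± 0.28, edgeR adjusted p = 0.0222). Nrg1 did not pass without KO-HFD-1520 and KO-HFD-1558 (log2 fold change -1.39, edgeR adjusted p = 0.105) or without KO-SFD-1318 and KO-SFD-1319 (edgeR adjusted p = 0.277). The median of the list was -0.16. The ligand genes Tgfa and Egf had log2 fold changes of -0.51 and -0.31 and did not pass the test (edgeR adjusted p = 0.232 and 0.413). Erbb2, the partner of EGFR in dimers, was at -0.16 (edgeR adjusted p = 0.408). None of the 16 immediate early genes tested passed (smallest edgeR adjusted p = 0.282), with a median of 0.18.

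Some carriers of the proximal tubule rose, although most members of each group did not pass the test. Over all genes tested, 1.57% rose and 0.825% fell. Of 19 tested genes for uptake of glucose, phosphate and sodium, 5 rose and 1 fell, and the median log2 fold change was 0.24 in KO and 0.09 in WT. Slc5a2, the main glucose carrier of the luminal membrane, was at 336, 374, 317 and 341 FPM in KO-SFD and at 667, 755, 1453 and 1095 FPM in KO-HFD (log2 fold change 1.54 ± 0.21, edgeR adjusted p = 0.000594). The KO-SFD kidneys were tightly grouped, and each KO-HFD kidney was higher, KO-HFD-1520 and KO-HFD-1558 most. Slc2a2, which carries glucose out on the blood side, rose by 0.79 ± 0.14, the phosphate carrier Slc34a3 by 1.17 ± 0.16, the bicarbonate carrier Slc4a4 by 0.75 ± 0.16 and the endocytic adaptor Dab2 by 0.92 ± 0.13. With the thick ascending limb covariate, none of these 5 risen genes passed. Their log2 fold changes were then 0.80 for Slc5a2, 0.25 for Slc2a2, 0.67 for Slc34a3, 0.45 for Slc4a4 and 0.61 for Dab2. The more abundant phosphate carrier Slc34a1 was at 0.35 ± 0.20 (edgeR adjusted p = 0.406). Aqp7, a glycerol and water channel, fell by 0.61 on the log2 scale (SE 0.12, edgeR adjusted p = 0.0108).

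Organic anion transport showed 3 risen and no fallen genes among 26 tested, with a median of 0.20 in KO and 0.01 in WT. Slc22a8, the basolateral exchanger that brings organic anions into the cell, was at 275, 259, 265 and 391 FPM in KO-SFD and at 636, 641, 1082 and 864 FPM in KO-HFD (log2 fold change 1.44 ± 0.18, edgeR adjusted p = 0.000399). Slc13a1, a sodium sulphate carrier, rose by 1.46 ± 0.25 and Slc5a12, a sodium lactate carrier, by 1.13 ± 0.26. Amino acid and peptide transport had 4 risen and no fallen genes among 18 tested, with a median of 0.12. These were Slc7a8 (1.35 ± 0.17) and Slc7a7 (0.98 ± 0.17), both for basolateral exchange, Slc16a10 (1.03 ± 0.16) for aromatic amino acids and Slc7a9 (0.67 ± 0.16) for cystine. Among 10 genes for organic cations and carnitine, the drug pump gene Abcb1b rose by 1.52 ± 0.22. Its values were 10.4 to 14.8 FPM on SFD and 23.3 to 39.8 FPM on HFD. With the thick ascending limb covariate, none of the risen genes of these 3 lists passed. The log2 fold changes were then 0.76 for Slc22a8, 0.83 for Slc13a1, 0.79 for Slc5a12 and 1.34 for Abcb1b. For Slc7a8, Slc7a7, Slc16a10 and Slc7a9 they were 1.00, 0.58, 0.75 and 0.23.

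The summed level of the proximal tubule markers moved with these genes in part of the libraries. It was 15900.1 to 18632 FPM in KO-SFD, and 17583, 17212, 26184 and 22036 FPM in KO-HFD, so that KO-HFD-1437 and KO-HFD-1504 lay within the KO-SFD range and KO-HFD-1520 and KO-HFD-1558 above it. Of the 12 markers, only Slc5a2 and Slc5a12 passed the test, and the median was 0.19. Without KO-HFD-1520 and KO-HFD-1558, 3 genes of the glucose, phosphate and sodium list, 1 of the organic anion list and 2 of the amino acid list rose. Among 8 genes of the convoluted proximal tubule, a list written after the data were seen, 6 rose and the median was 0.88. Without KO-HFD-1520 and KO-HFD-1558 1 of these 8 rose, Slc5a2, and it was also the 1 that rose without KO-SFD-1318 and KO-SFD-1319. With all mice, the log2 fold changes of Slc7a7, Gatm, Slc2a2, Slc4a4 and Slc5a12 were 0.98, 1.45, 0.79, 0.75 and 1.13. In the same order, they were 0.94, 1.23, 0.80, 0.66 and 1.01 without KO-SFD-1318 and KO-SFD-1319. Leaving out KO-HFD-1520 and KO-HFD-1558 gave 0.78, 1.19, 0.50, 0.58 and 0.79. Among 8 genes of the straight segment, written in the same way, none passed (smallest edgeR adjusted p = 0.117) and the median was -0.16. In bulk tissue, more cells of a type and more RNA per cell cannot be told apart.

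Markers of the thick ascending limb had lower values in KO-HFD kidneys, although 1 of 5 passed the test. All 5 thick ascending limb markers had negative log2 fold changes, with a median of -0.59 in KO and -0.18 in WT. Ppp1r1a, a protein phosphatase inhibitor, passed the test and fell by 0.80 on the log2 scale (SE 0.18, edgeR adjusted p = 0.0212). It did not pass without KO-HFD-1520 and KO-HFD-1558 (log2 fold change -0.63, edgeR adjusted p = 0.262) or without KO-SFD-1318 and KO-SFD-1319 (-0.61, edgeR adjusted p = 0.244). Umod, the gene of uromodulin and the most abundant marker, was at 5416, 5688, 5501 and 5544 FPM in KO-SFD and at 4310.0, 4253, 2543 and 3566 FPM in KO-HFD (log2 fold change -0.59 ± 0.18, edgeR adjusted p = 0.107). The groups did not overlap, although the test was not passed. Slc12a1, the salt carrier of this segment, was at 1211 to 2043 FPM in KO-SFD and at 1285, 1182, 419 and 808 FPM in KO-HFD (edgeR adjusted p = 0.191). The summed level of the 5 markers was 8539 to 9414 FPM in KO-SFD and 7281, 7002, 4088 and 5574 FPM in KO-HFD. KO-HFD-1520 and KO-HFD-1558 were the lowest. Genes of the inner medulla and thin limbs, a list written after the data were seen, summed to 731 to 989 FPM in KO-SFD and to 699, 707, 238 and 338 FPM in KO-HFD. Of these 7 genes the keratin gene Krt7 fell, by 0.57 on the log2 scale (SE 0.13, edgeR adjusted p = 0.0240). Slc14a2, the urea carrier of the inner medulla, was at 68.4 to 118 FPM in KO-SFD and at 68.5, 132, 2.91 and 29.8 FPM in KO-HFD. The summed thick ascending limb markers did not overlap between the diets in KO, so the covariate fit given above cannot tell them from diet. The part of these marker differences in the other results was not tested.

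**Figure D3:**
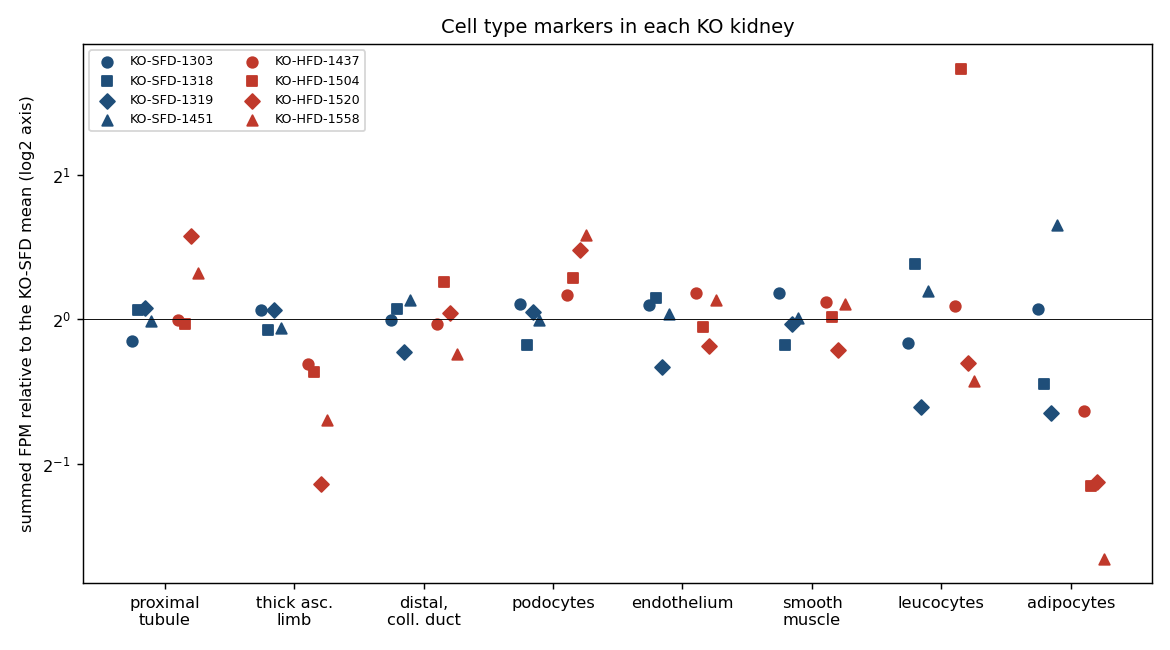
Summed FPM of cell type marker lists in each KO kidney, divided by the KO-SFD mean (log2 axis), with KO-SFD in blue and KO-HFD in red and 1 symbol per mouse. All 4 KO-HFD kidneys are below all KO-SFD kidneys in thick ascending limb markers, KO-HFD-1504 is high in leucocyte markers, and KO-SFD-1451 is high in adipocyte markers.

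In the distal nephron, Slc12a3, the thiazide-sensitive salt carrier, was at 443 to 564 FPM in KO-SFD and at 608, 750.0, 1058 and 849.8 FPM in KO-HFD (log2 fold change 0.71 ± 0.14, edgeR adjusted p = 0.0124). Pvalb, which marks the early distal convoluted tubule, went from 13.8, 19.3, 16.9 and 19.6 FPM to 28.4, 49, 74.3 and 55.4 FPM (log2 fold change 1.57 ± 0.25, edgeR adjusted p = 0.0021). Wnk4, a kinase that regulates Slc12a3, fell by 0.39 on the log2 scale (SE 0.10, edgeR adjusted p = 0.0464). Of 21 genes of distal salt and water transport, 1 was higher (Slc12a3) and 1 lower (Wnk4), and the median was -0.03. No gene of this list passed without KO-HFD-1520 and KO-HFD-1558 (Slc12a3 adjusted p = 0.156 and Wnk4 0.298 by edgeR), nor without KO-SFD-1318 and KO-SFD-1319 (0.102 and 0.388). The log2 fold change of Slc12a3 was 0.46 in the first of these fits and 0.72 in the second, and that of Wnk4 was -0.35 and -0.24. Of 11 markers of the distal tubule and collecting duct, Pvalb and Slc12a3 were the ones that passed, 6 had log2 fold changes below 0, and the median was -0.03.

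Glucose production was represented by 14 tested genes, of which 3 rose and none fell, with a median of 0.24 in KO and 0.20 in WT. G6pc, the enzyme that releases free glucose, was at 315, 209, 289.6 and 394 FPM in KO-SFD and at 483, 659, 1191 and 1045 FPM in KO-HFD (log2 fold change 1.48 ± 0.30, edgeR adjusted p = 0.0115). Glud1, which deaminates glutamate, rose by 0.52 ± 0.12, and Pcx, the pyruvate carboxylase gene, by 0.66 ± 0.16. With the thick ascending limb covariate, G6pc was at 0.48, Glud1 at 0.19 and Pcx at 0.11 (edgeR adjusted p = 0.564, 0.608 and 0.814). Pck1, of the committed step, was at 1183 to 1945 FPM in KO-SFD and at 3282, 3159, 6980.3 and 3227 FPM in KO-HFD and did not pass the test (log2 fold change 1.45 ± 0.39, edgeR adjusted p = 0.0675). None of the 3 risen genes passed without KO-HFD-1520 and KO-HFD-1558, nor when KO-SFD-1318 was left out. The log2 fold changes of G6pc, Glud1 and Pcx were 0.94, 0.31 and 0.38 without KO-HFD-1520 and KO-HFD-1558. They were 1.25, 0.53 and 0.65 without both KO-SFD-1318 and KO-SFD-1319. Among genes of amino acid breakdown and creatine synthesis, named after their values were seen, the glycine cleavage gene Gldc rose from 17.4 to 49.4 FPM in KO-SFD to 102 to 281 FPM in KO-HFD (log2 fold change 2.58 ± 0.32, edgeR adjusted p = 0.000389). Gatm, of creatine synthesis, rose by 1.45 ± 0.26.

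Lipid genes moved in few members, beside 1.57% risen and 0.825% fallen among all genes tested. None of 18 genes of mitochondrial fatty acid oxidation passed, with a median of 0.03, and the smallest edgeR adjusted p was 0.0647 for Acadm, which had a log2 fold change of -0.46. Of 24 PPARα targets and genes of ketogenesis and peroxisomal oxidation, Fabp1, a fatty acid binding protein, rose from 0.162 to 0.338 FPM in KO-SFD to 1.77 to 4.32 FPM in KO-HFD (log2 fold change 3.51 ± 0.56, edgeR adjusted p = 0.00175). Ppara itself was at 0.99 ± 0.29 (edgeR adjusted p = 0.0909). In cholesterol synthesis and uptake, 3 of 20 genes fell and none rose, with medians of -0.36 in KO and -0.32 in WT. These were Sqle, Idi1 and Cyp51, which fell by 0.76, 0.87 and 0.53 on the log2 scale, and KO-HFD-1520 had the lowest value of each. Fatty acid and triacylglycerol synthesis had 3 fallen genes among 17, Scd1, Fads1 and Acaca. Scd1, the stearoyl-CoA desaturase gene, was at 716, 177, 235 and 938 FPM in KO-SFD and at 202, 164, 163 and 70.2 FPM in KO-HFD (log2 fold change -1.79 ± 0.43, edgeR adjusted p = 0.0345). The groups overlapped, and KO-SFD-1303 and KO-SFD-1451 held the high values. None of the 17 genes passed when either of these mice, or any of KO-HFD-1504, KO-HFD-1520 and KO-HFD-1558, was left out. Over the 18 alternative fits run for it, the log2 fold change of Scd1 was between -2.47 and -1.33. Without KO-SFD-1318 and KO-SFD-1319, Scd1 was at -2.47 (edgeR adjusted p = 0.00176) and Acaca at -1.81 (edgeR adjusted p = 0.00149). No cholesterol gene passed without KO-SFD-1303 or without KO-SFD-1318. Over the 18 alternative fits, the log2 fold change was between -0.85 and -0.24 for Sqle and between -1.06 and -0.74 for Idi1. For Cyp51 it was between -0.63 and -0.15. The values of -0.24 for Sqle and -0.15 for Cyp51 came with the thick ascending limb covariate.

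Adipocyte markers were high in the same KO-SFD kidneys. The 14 markers summed to 1194, 834, 727 and 1786 FPM in KO-SFD and to 733, 511, 522 and 361 FPM in KO-HFD, with Lpl the most abundant. Of the 14 markers 13 had a negative log2 fold change, and the median was -0.99. Lep was the marker that rose, and Lpl, lipoprotein lipase, fell by 1.07 on the log2 scale (SE 0.27, edgeR adjusted p = 0.0423). Cfd, the adipsin gene, was at 82.9, 15.5, 10.2 and 238 FPM in KO-SFD and at 12.4, 10.3, 1.77 and 0 FPM in KO-HFD (edgeR adjusted p = 0.0818). With the mean of the adipocyte markers as a covariate, 308 genes passed at 0.05. Scd1 was among them at a log2 fold change of -1.34 (edgeR adjusted p = 0.0102), as was Acaca at -0.92 (edgeR adjusted p = 0.0382).

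**Figure D4:**
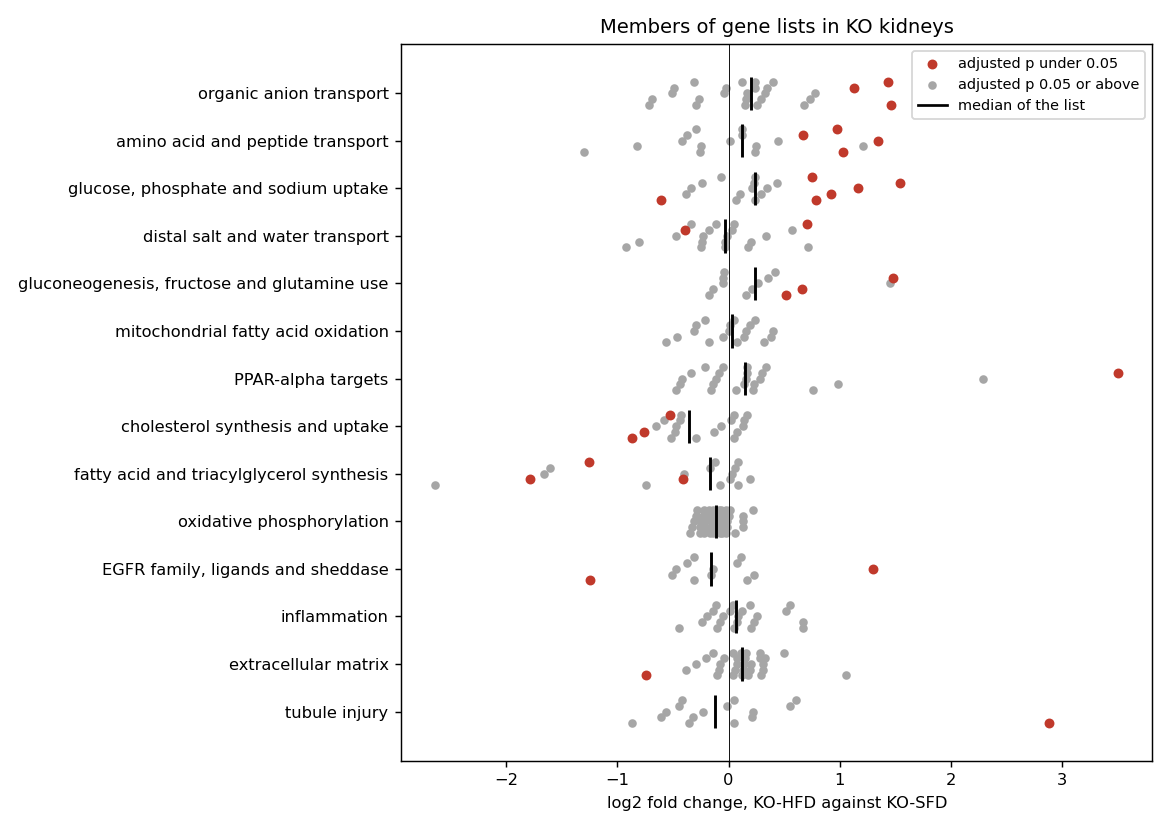
Log2 fold change of KO-HFD against KO-SFD kidneys (horizontal axis) for the tested members of 14 gene lists, each point 1 gene, with members at an edgeR adjusted p under 0.05 in red and the median of each list as a black line. Apart from Aqp7, red points lie to the right in the first 3 transport lists, and they lie to the left in cholesterol and fatty acid synthesis.

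Fallen genes included several with tight groups. Igf2bp1 (chr11:95957163-96005940, minus strand), an RNA-binding protein of fetal tissue, was at 9.26, 8.35, 8.79 and 5.68 FPM in KO-SFD and at 2.77, 2.16, 1.27 and 1.61 FPM in KO-HFD (log2 fold change -2.02 ± 0.22, edgeR adjusted p = 0.000137). Fgfbp1, which releases fibroblast growth factors from the matrix, was at 5.21, 8.25, 4.65 and 5.63 FPM on SFD and at 1.95, 2.34, 1.58 and 2.16 FPM on HFD (log2 fold change -1.54 ± 0.19, edgeR adjusted p = 0.000399). For both genes even the highest KO-HFD kidney lay well below the lowest KO-SFD kidney. Acox2, a peroxisomal oxidase of branched fatty acids and bile acid precursors, was at 129.6 to 154 FPM in KO-SFD and at 67.7 to 81.5 FPM in KO-HFD. Ndrg2, of the N-myc downstream-regulated family, was at 186 to 207 FPM and at 94.6 to 129 FPM. The steroid reductase gene Akr1d1 fell by 1.12, the tubular adhesion gene Tmigd1 by 0.84, the ATP-gated channel gene P2rx5 by 0.95 and the kynurenine aminotransferase gene Ccbl2 by 0.86 on the log2 scale. Cyp2d12, of the cytochrome P450 family, was at 170.0, 160.2, 104 and 134 FPM on SFD and at 27.9, 44.3, 28.9 and 28.9 FPM on HFD (log2 fold change -2.12 ± 0.32, edgeR adjusted p = 0.00117). A gene named only by the clone RP23.20G7.4 completes the 10. Cyp2d12, Cyp2a4, Ces1g, Ugt2b34, Ugt3a1 and Gstm1 have near-identical relatives, and how reads that map to several places were counted is not given in the sources used here. Ugt3a1 and Gstm1 were the fallen members among 15 conjugation genes (by 0.71 and 0.86), and Cyp2a4 fell by 0.73 among 5 genes with higher levels in female kidneys.

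Of the genes at 5 FPM or more that passed the test, Trib3 and Asns had the largest fitted falls. Both belong to the amino acid response, in which ATF4 activates its targets when amino acids are short. Trib3, a pseudokinase gene of this response, was at 1.4, 15.8, 9 and 3.5 FPM in KO-SFD and at 1.25, 1.34, 1.08 and 0.955 FPM in KO-HFD (log2 fold change -2.66 ± 0.57, edgeR adjusted p = 0.0188). Asns, asparagine synthetase, was at 4.29, 22.6, 24.0 and 6.72 FPM in KO-SFD and at 4.34, 3.85, 2.15 and 2.11 FPM in KO-HFD (log2 fold change -2.19 ± 0.46, edgeR adjusted p = 0.0158). In both genes KO-SFD-1318 and KO-SFD-1319 were high, and KO-SFD-1303 was close to the KO-HFD kidneys. Of 15 tested genes of the response, a list written after the data were seen, 4 fell (with Mthfd2 and Atf5) and 2 rose. The risen genes were Psat1, of serine synthesis (1.20 ± 0.21), and Sesn2, a stress-induced inhibitor of mTORC1 (0.93 ± 0.22). Without KO-SFD-1318 and KO-SFD-1319, none fell and 1 rose. These mice had been left out for their high amino acid response genes, so the loss of fallen genes followed from that choice. Leaving out any one of KO-SFD-1318, KO-SFD-1319, KO-HFD-1520 and KO-HFD-1558 also left no fallen gene, as did a fit of only the 8 KO kidneys. Without both KO-HFD-1520 and KO-HFD-1558, Trib3, Asns, Mthfd2 and Atf5 had log2 fold changes of -2.48, -1.79, -1.68 and -1.38. Without both KO-SFD-1318 and KO-SFD-1319, these were -1.04, -0.79, -0.48 and -0.26. Cym, the chymosin gene, had the same pattern, with 1.74, 7.06, 7.31 and 4.10 FPM in KO-SFD and 0.855 to 2.17 FPM in KO-HFD. In WT kidneys Trib3 and Asns had log2 fold changes of 0.18 ± 0.70 and -0.41 ± 0.49.

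The stretches before the start sites of 2 genes are shown, one for the strongest switched gene with a RefSeq promoter entry and one for the amino acid response. They hold the 250 bases before the start site (RefSeq, GRCm38.p6), 5′ to 3′ on the minus strand of each gene, at chr1:139377077-139377326 for Crb1 and at chr6:7693210-7693459 for Asns. Capitals mark CACGTG, the E-box letters bound by clock and USF factors, in Crb1, and TGATGNAA, the letters of the element bound by ATF4 with C/EBP factors, in Asns.
Crb1: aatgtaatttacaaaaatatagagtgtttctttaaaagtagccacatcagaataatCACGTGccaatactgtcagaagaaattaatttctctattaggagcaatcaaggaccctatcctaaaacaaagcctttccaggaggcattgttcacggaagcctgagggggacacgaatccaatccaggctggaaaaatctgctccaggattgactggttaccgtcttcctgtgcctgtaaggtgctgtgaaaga
Asns: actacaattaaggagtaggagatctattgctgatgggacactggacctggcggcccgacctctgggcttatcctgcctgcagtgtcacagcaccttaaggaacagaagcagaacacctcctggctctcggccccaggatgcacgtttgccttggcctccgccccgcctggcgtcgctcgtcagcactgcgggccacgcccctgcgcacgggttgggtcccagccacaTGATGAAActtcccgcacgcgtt
Both motifs were searched on both strands, and TGATGNAA was chosen with the values in view. In windows that run to 50 bases past the start, CACGTG was present in 7.15% and TGATGNAA in 3.97% of 32851 RefSeq promoters, and in 9.30% and 2.31% of those of tested genes. Among named genes, CACGTG was also found at Pcx, and TGATGNAA at Trib3, Gc, Apoe, G6pc, Idi1 and Slc7a7, most of them outside the amino acid response. A match describes the sequence only. The other motifs searched were TTATGTAA (0.938% of promoters), the DR1 element of PPAR and HNF4 factors (0.0396%), the HNF1 palindrome (0.00913%) and a CArG box of SRF (0.0639%), and of these TTATGTAA was found before Alb and Ces1g and the rest before no named gene.

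Of 9 carriers and regulators of thyroid hormone, retinoids and lipids, a list written after the data were seen, 4 rose, among them Ttr, Gc and Apoe, and Lpl fell. The median was 0.26 in KO and 0.49 in WT, where 4 also rose. Apoe, the apolipoprotein of remnant clearance, was at 377, 597, 324 and 428 FPM in KO-SFD and at 1012, 1325, 1511 and 1414 FPM in KO-HFD (log2 fold change 1.61 ± 0.22, edgeR adjusted p = 0.000594). Ttr, the thyroxine and retinol carrier, was at 51.4 to 102 FPM and at 269, 197, 556 and 422 FPM (log2 fold change 2.33 ± 0.30, edgeR adjusted p = 0.000399). Neither gene had overlapping groups. Of 9 tested genes of a liver list, written after the data were seen, Ttr and Fgb rose, 8 had log2 fold changes above 0, and the median was 0.60 in KO and 0.50 in WT. Alb, the defining gene of hepatocytes, was at 4.40 to 7.04 FPM in KO-SFD and at 6.73 to 12.5 FPM in KO-HFD (edgeR adjusted p = 0.102). Sox9, a transcription factor of repairing tubules, was at 0.482, 0.269, 0.256 and 0.492 FPM in KO-SFD and at 1.25, 3.29, 3.29 and 3.42 FPM in KO-HFD (log2 fold change 2.89 ± 0.41, edgeR adjusted p = 0.000822). It was the only one of 16 injury genes that passed, and the median of that list was -0.12. Nox4, the NADPH oxidase of tubules, rose by 0.89 ± 0.19 as the only one of 16 antioxidant and oxidase genes, while 1.57% of all genes tested rose.

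No gene of inflammation (22 tested, smallest edgeR adjusted p = 0.104, Vcam1), interferon response (19, 0.263) or antigen presentation (15, 0.130) passed, with medians of 0.07, -0.12 and 0.15. In WT the medians of inflammation and antigen presentation were 0.26 and 0.38, and 1 antigen presentation gene passed. Leucocyte markers did not pass either (18 tested, smallest edgeR adjusted p = 0.133, Ptprc), and their sum was 290.1 to 573 FPM in KO-SFD and 469, 1463, 358 and 328 FPM in KO-HFD. KO-HFD-1504 stood out, and Ptprc was at 30.5 FPM in it and at 8.10 to 12.6 FPM in the other KO-HFD kidneys. Of 31 extracellular matrix genes, Col5a2 fell by 0.74 on the log2 scale (edgeR adjusted p = 0.0458) and none rose. The list does not hold Col8a1, the collagen gene that rose by 2.99 on the log2 scale. In the renin-angiotensin system, Mas1, the receptor for angiotensin fragments, was the one of 8 genes that fell (by 1.45, edgeR adjusted p = 0.0468). Its groups overlapped, with KO-HFD-1437 at 2.6 FPM and the lowest KO-SFD kidney at 2.59 FPM, and it did not pass without KO-HFD-1520 and KO-HFD-1558 (log2 fold change -1.14, edgeR adjusted p = 0.333) or without KO-SFD-1318 and KO-SFD-1319 (-1.36, edgeR adjusted p = 0.255). Of 18 clock genes, Bhlhe40 rose by 0.53 ± 0.11. Such single calls stand beside 1.57% risen and 0.825% fallen among all genes tested and do not describe their lists. Among 9 genes of vitamin C and vitamin D, only Gulo and Cyp24a1 passed, and among 19 genes of heat shock and ER stress only Asns and Trib3. Neither the 8 male-biased kidney genes (median -0.37) nor the 15 tubule transcription factors (median 0.13) held a gene that passed, with smallest edgeR adjusted p of 0.117 and 0.0909. None of 45 oxidative phosphorylation genes passed (smallest edgeR adjusted p = 0.277), and their median was -0.11. The 10 podocyte markers all had log2 fold changes above 0 (median 0.45) without passing the test (smallest edgeR adjusted p = 0.137, Synpo). None of 11 endothelial and 10 smooth muscle markers passed, with medians of 0.01 and 0.02. Tagln, Cnn1 and Mcam of smooth muscle and Cdh5 of endothelium had no count in any kidney and were not analysed. Their zeros are not read as absent expression. The smooth muscle markers, the cells in which Egfr is deleted, summed to 352 to 450.3 FPM in KO-SFD and 344 to 433 FPM in KO-HFD.

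The diet effect of KO kidneys was set beside that of WT kidneys, which share no animal with them. In WT 145 genes passed at 0.05 (0.964% of genes tested), 123 higher and 22 lower. Of these, 108 also passed in KO, all in the same direction, which is 30.0% of the KO genes and 74.5% of the WT genes. Of the 360 KO genes, 350 had a log2 fold change of the same sign in WT. Gulo, Crb1, Col8a1, Chrna4, Etv4, Gc, Prodh2, Ugt2b34 and Igf2bp1 passed in both genotypes, as did Slc5a2, Slc34a3, Slc7a8 and Abcb1b. Slc22a8 and Slc13a1 passed in KO but not in WT, where the log2 fold change was 0.53 ± 0.18 for Slc22a8 (edgeR adjusted p = 0.296) and 0.52 ± 0.25 for Slc13a1 (edgeR adjusted p = 0.621). In a direct test of whether the diet effect differed by genotype, no gene passed at 0.05 (0% of 15034 by edgeR), while 503 genes had an unadjusted p under 0.05. DESeq2 called 1 gene, Ccl28, a mucosal chemokine. Ccl28 was at 8.78, 7.22, 8.38 and 15.7 FPM in KO-SFD and at 23.9, 27.4, 32.6 and 43.1 FPM in KO-HFD, and in WT at 19.1 ± 1.72 FPM on SFD and 18.9 ± 5.80 FPM on HFD (SD, n = 4). Its difference of log2 fold changes was 1.69 ± 0.35 in the edgeR fit. By edgeR, a gene that passed in 1 genotype only was thus not shown to differ between them.

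**Figure D5:**
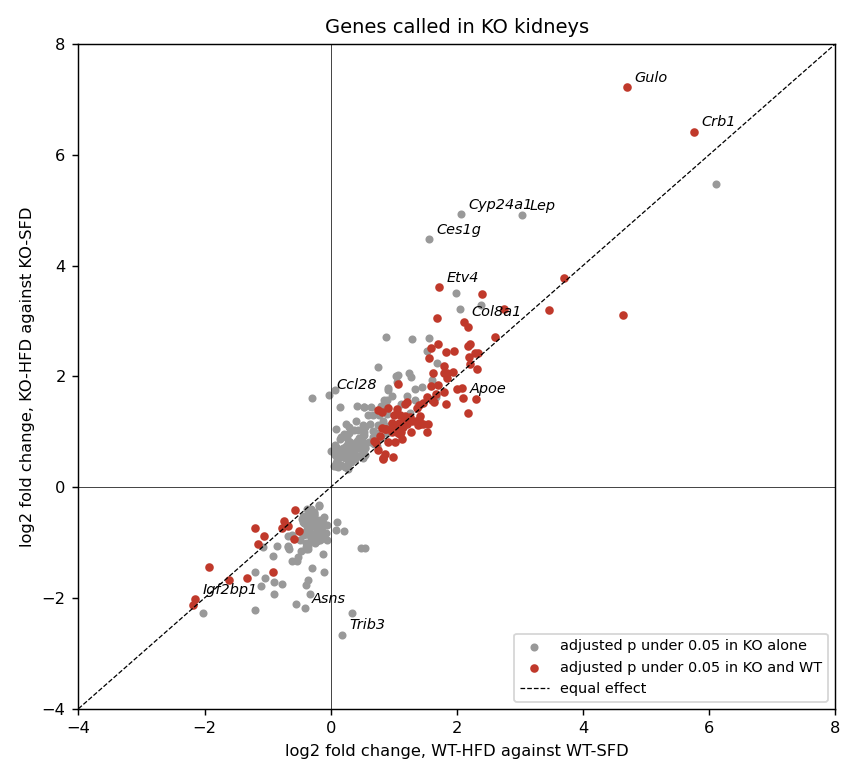
Log2 fold change of HFD against SFD in KO kidneys (vertical axis) and in WT kidneys (horizontal axis) for the 360 genes called in KO, each point 1 gene. The 108 genes that also passed in WT are red, the dashed line marks equal effects, and 350 points have the same sign on both axes.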

How the data were processed

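RNA of 16 kidneys was sequenced by a company. According to the methods and the submitters' processing notes, the reads were clipped and trimmed, aligned to mm10 with TopHat and counted per gene with featureCounts. The values used are the deposited raw counts, 1 column per mouse. Strand setting and handling of multi-mapping reads are not given in the sources used here. The label protocol, shared with the aorta, names depletion of ribosomal RNA. The aorta table was not used.

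R 4.3.3, edgeR 4.0.16, limma 3.58.1 and DESeq2 1.42.0 were used, and Python 3.11.15, pandas 2.3.3, numpy 2.4.6 and matplotlib 3.10.9 for lists and plots. Of 41128 genes, 23798 had a count and 15034 passed filterByExpr. All 16 kidneys were fitted together (glmQLFit, glmQLFTest, TMM, a coefficient per group, common dispersion 0.0372), with Benjamini-Hochberg adjustment over all genes tested. The fit was tested on simulated data. Depth was 17487556 to 21799372 counts per KO kidney. No pair of the 8 libraries agreed within sampling noise (smallest chi-square per gene 17.4). Intervals of count ratios are 95% exact binomial intervals and cover counting error only. Positions came from GENCODE vM21, which held 40254 of the genes.

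Named genes were Egfr, the 10 per direction with the smallest p among called genes without overlap of the groups, the 5 per direction with the largest fold change at 5 FPM or more, and list members that passed, or up to 3 with the smallest p where none did. Some genes that meet this rule are not reported here. Genes outside this rule were chosen after their values were seen. The members and lists were chosen with earlier results of these data known. Lists are described by counts and medians, with no test of the list. Their counts are to be read beside the 1.57% risen and 0.825% fallen among all genes tested. Alternatives were DESeq2, RLE factors, library totals, no low count filter, a fit of only the 8 libraries, the legacy quasi-likelihood test and leaving out each library. The marker covariates and the fits without pairs of mice were added after the data had been seen.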

Additional observations from a re-analysis of the deposited data

Results flagged for a closer look

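Single kidneys stood apart from the other 3 of their group in 13 of 204 groups of 4 examined, by Dixon's criterion, which sets the gap to the nearest value against the range of the group. Chance alone flags about 1 in 20 groups. KO-HFD-1520 was high in Lep (17.2 FPM against 1.74 to 2.66) and Pck1 (6980.3 FPM against 3159 to 3282) and low in Sqle (35.2 FPM against 64.2 to 69.4). KO-HFD-1437 was low in Gc (61.4 FPM against 117 to 121) and Sox9 (1.25 FPM against 3.29 to 3.42). KO-HFD-1504 was high in the sum of leucocyte markers (1463 FPM against 328 to 469) and in Cyp2d12 (44.3 FPM against 27.9 to 28.9). KO-SFD-1451 was high in Ces1g (21.0 FPM against 2.17 to 2.56) and in Slc22a8 (391 FPM against 259 to 275). KO-SFD-1319 was high in Aqp7 (52.1 FPM against 40.6 to 42.0), low in Col8a1 (0.767 FPM against 1.45 to 1.58) and the only KO-SFD kidney with counts of Crb1 (0.102 FPM). KO-SFD-1318 was low in Col5a2 (11.4 FPM against 19.3 to 20.4).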

How the results depend on the processing

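No paired analysis was possible, as each kidney came from a different mouse and the labels name no pairs. The labels give no replicate numbers, and the numbers used here follow accession order. The count of 360 genes at an adjusted p under 0.05 was 695 with DESeq2 and 235 with only the 8 KO kidneys fitted, and 203 to 422 when each KO kidney was left out (203 without KO-HFD-1558, 206 without KO-SFD-1318, 218 without KO-HFD-1520 and 422 without KO-HFD-1437). It was 4 with the thick ascending limb covariate (Crb1, Gulo, Col8a1 and Spaca6), 128 without KO-HFD-1520 and KO-HFD-1558, and 119 without KO-SFD-1318 and KO-SFD-1319. RLE factors (362), library totals (356), no filter (352), the legacy test (346) and the adipocyte covariate (308) stayed within 1.5 times. The 50 genes at 0.001 became 218 with DESeq2, 80 without the filter, 4 with only the 8 KO kidneys, 25 with the adipocyte covariate, 4 without KO-HFD-1520 and KO-HFD-1558, and 0 with the thick ascending limb covariate or without KO-SFD-1318 and KO-SFD-1319. Leaving out each kidney gave 10 to 66, with 10 without KO-SFD-1319 or KO-HFD-1558, 13 without KO-SFD-1303, 16 without KO-SFD-1318, 19 without KO-SFD-1451 and 21 without KO-HFD-1520. In WT the 145 genes became 263 with DESeq2 and 96 with the thick ascending limb covariate. The genotype difference was 1 gene with DESeq2 and 0 in every other fit. Of 76 named genes that passed, 43 passed with every other tool, scaling and filter, in the fit of only the 8 KO kidneys and with each kidney left out. In each of the fits without a pair of mice, 32 of the 76 lost their call: Nrg1, Lep, Trib3, Asns, Cym, Slc13a1, Slc5a12, Slc7a7, Slc7a9, Slc2a2, Slc4a4, Aqp7, Slc12a3, Wnk4, G6pc, Glud1, Pcx, Gatm, Sqle, Idi1, Cyp51, Fads1, Lpl, Mas1, Cyp2a4, Gstm1, Ppp1r1a, Fgb, Atf5, Mthfd2, Sesn2 and Krt7. Without the KO-HFD pair alone 8 more did (Cyp2d12, Scd1, Acaca, Nox4, Bhlhe40, Col5a2, Ugt3a1 and Psat1), and without the KO-SFD pair alone 5 more (Errfi1, Ces1g, Slc16a10, Fabp1 and Ccl28). Some of the log2 fold changes behind lost calls kept about their size, and others shrank. As examples, Slc12a3 was at 0.72 without the KO-SFD pair against 0.71 in the main fit, and Krt7 at -0.56 against -0.57. By contrast, Trib3 was at -1.04 against -2.66 and Atf5 at -0.26 against -1.68. In 18 of 1620 values, a named gene that had not passed in the main fit passed at 0.05. These were Acadm and Spaca6 in 3 fits each, Pck1, Ppara, Cfd, Alb and Ptprc in 2 each, and Umod and Vdr in 1 each. Among the log2 fold changes of named genes, 10 of 1620 values changed sign, none of a called gene. With the thick ascending limb covariate these were Slc34a1 (-0.18), Umod (0.06), Slc12a1 (0.45), Slc14a2 (2.13), Vdr (-0.03) and Cyp27b1 (-0.57). Without KO-HFD-1520 and KO-HFD-1558 they were Slc14a2 (0.10) and Cyp27b1 (-0.47), and Cyp27b1 ranged from -0.19 (without KO-SFD-1303) to 0.49 (without KO-SFD-1318) as single kidneys were left out, with -0.11 without KO-HFD-1520. Umod and Slc12a1 are themselves part of the thick ascending limb covariate, so their change of sign with it carries no separate information. The causes of the other changes were not tested. Depth limits Gulo, Crb1 and other genes near 0 on SFD, whose fitted fold changes depend on the prior count.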
